A study of Sus scrofa with 6 samples.

Results

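TGF-beta ligands, the inhibitory SMADs and the ID proteins were followed in neonatal pig Sertoli cells (NPSC) kept with or without human serum. The genes were taken by symbol: TGFB1, TGFB2, TGFB3, INHBA, SMAD6, SMAD7, SKIL, ID1, ID2 and ID3. Of these 10 symbols, 7 were matched to the 25149 Ensembl pig genes of the count tables. INHBA, ID1 and ID3 were not matched and are not analysed here. All 7 matched genes passed the expression filter, among 17512 genes tested. The cells were wild-type Sertoli cells isolated from testes of 3- to 5-day-old Duroc-Landrace pigs (3 litters of 4 males, the testes of a litter processed together) and plated in DMEM with 10% FBS. In baseline NPSC (3 libraries), 5 mL of the 10 mL of medium was replaced with DMEM. In complement NPSC (3 libraries), the same volume was replaced with pooled AB human serum in which complement had been preserved, and the cells were harvested after 90 min. Neither group received heat-inactivated serum, so complement and the other constituents of serum cannot be told apart. Whether the plates came from separate litters is not stated, so all p-values measure the spread between these plates, which may be technical.

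TGF-beta ligands are secreted in a latent form and, once released, bring a type II and a type I receptor kinase together. The type I receptor phosphorylates receptor SMADs, which join SMAD4 and enter the nucleus, SMAD2 and SMAD3 downstream of TGF-beta and activin and SMAD1, SMAD5 and SMAD9 downstream of BMP ligands. Genes switched on early by these SMADs include the pathway's own brakes, SMAD6, SMAD7 and SKIL, and the ID genes, whose products bind E proteins and keep them off DNA. In the testis, activins, inhibins and anti-Müllerian hormone of the same family are classic Sertoli cell products.

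Counts on genes ranged from 6796183 to 8371923 per baseline NPSC library and from 3641518 to 6403606 per complement NPSC library. The lowest count of any of the 7 genes was 162, for SMAD6 in complement replicate 2, which limits that value to a counting error of 7.86%. Complement replicates 1 and 2 stood apart from the other libraries in how densely counts fell on 48 olfactory receptor genes, which Sertoli cells are not known to use: 4.01 and 4.43 CPM (counts scaled to a common library size) per kilobase of exon, against 1.51 in complement replicate 3 and 1.18 to 2.15 at baseline. At these densities a background would account for 7.95% (ID2) to 23.0% (TGFB3) of the counts of the 7 genes in complement replicate 2, where it came to 20.1% for SMAD6, and for 8.53% (ID2) to 16.3% (TGFB3) in complement replicate 1. In the other 4 libraries it came to between 1.37% and 8.98%. Of 10 Sertoli cell markers, 9 were matched and all 9 were detected, among them SOX9, WT1, GATA4 and CLU, while AMH was not matched. Of these 9, 5 lay lower in each complement library than in any at baseline, 1 (KRT18) lay higher, and none was called. CLU made up most of their sum, and KRT18 and DHH had LFC of 0.61 and 0.63 (adjusted p = 0.293 and 0.325). Their summed level was 5016 to 7738 CPM in baseline and 3299 to 3927 CPM in complement NPSC, without overlap. The 3 Leydig cell markers tested summed to 936 to 1139 and 713 to 760 CPM, also without overlap, and CYP11A1 was at 0 counts in every library. The summed levels of 4 peritubular myoid, 3 endothelial, 4 macrophage and 4 germ cell markers overlapped between the groups. Within the macrophage list, LYZ was apart, at 56, 27 and 110 counts in baseline against 12, 1 and 14 in complement libraries (LFC -2.28, SE 0.59, adjusted p = 0.261, expected background 43.7% of its counts). The other 3 had LFC of -0.75 (CSF1R, expected background 42.6%), -0.33 (CD14) and 0.11 (CD68), with overlapping groups. MYH11 was at 0 counts in every library, as were 3290 of the 25149 genes of the count tables. Why these gene models, CYP11A1 and MYH11 among them, drew no reads was not tested. A count of 0 is therefore not read as absent RNA.

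None of the 7 genes was called by edgeR's quasi-likelihood test (adjusted p under 0.05 over all genes tested, LFC beyond 1), a call that 0.103% of all tested genes received. ID2 and SMAD6 had their 3 lowest values in the 3 complement NPSC libraries, with fitted folds of 0.580 (95% interval 0.429 to 0.785) and 0.586 (0.396 to 0.867) against baseline. These were 2 of 7 genes, whereas the groups did not overlap for 17.1% of all tested genes and were apart in the lower direction for 8.14%. The same 2 genes had an unadjusted p under 0.05 in edgeR's test, which 15.2% of all tested genes had, 4.28% with a lower level in complement NPSC. The other 5 genes had overlapping groups, TGFB1 only by 58.9 against 59.2 CPM, and the DESeq2 Wald test, which gave 0.396% of all genes an adjusted p under 0.05, passed none of the 7. The median LFC (log2 fold change, complement against baseline NPSC) of the 7 genes was -0.29, beside 0.02 over all tested genes. As bulk libraries, these data cannot tell fewer cells of a type from less RNA per cell.

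**Figure D1:**
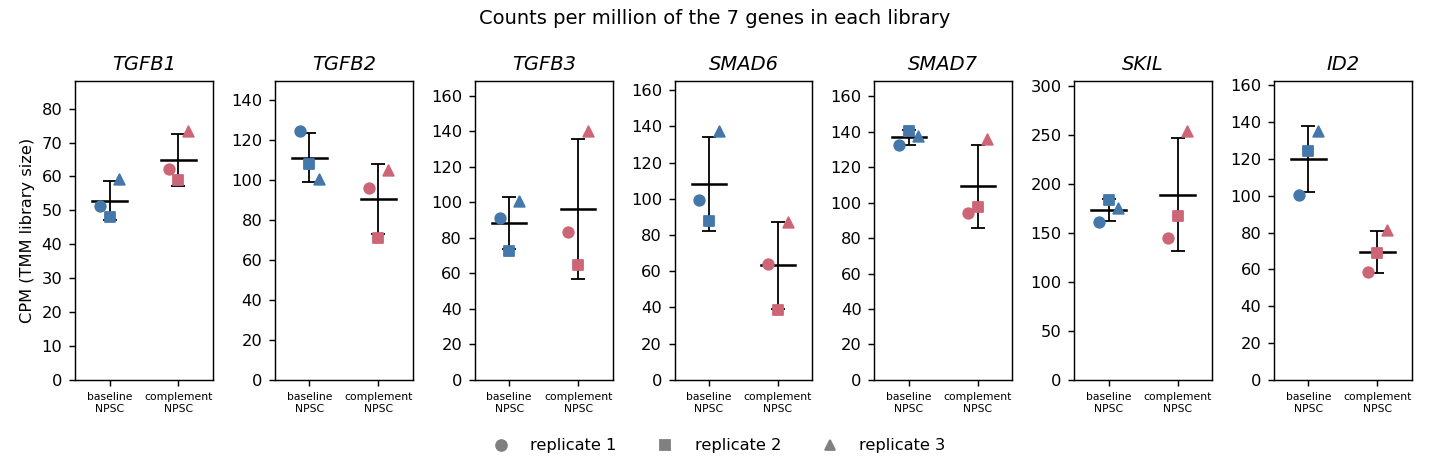
CPM (counts scaled by library size after TMM, the trimmed mean of M-values, vertical axes from 0) of the 7 genes in each library, with the mean (horizontal line) and SD (bars) of 3 libraries per group. The groups were apart for ID2 and SMAD6, at 58.5 to 81.3 against 100.5 to 135 CPM and 38.6 to 87.0 against 87.9 to 138 CPM, and they overlapped for the other 5 genes.

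TGFB1 (ENSSSCG00000003017; chromosome 6 from 45127027 to 45139176, minus strand, in the coordinates of the deposited tables, whose genome build is not named) encodes the ligand best known for immune suppression and fibrosis. Its level was 51.2, 48.0 and 59.2 CPM in the baseline libraries and 62.3, 58.9 and 73.5 CPM in the complement libraries. The lowest complement library lay just under the highest baseline library, and the other 2 lay above all baseline libraries. The LFC was 0.30 (SE 0.19, 95% interval -0.10 to 0.69, adjusted p = 0.414). Without complement replicate 3 it was 0.17 (adjusted p = 0.460). With olfactory receptor density as a covariate it was 0.46 (unadjusted p = 0.0216, adjusted p = 0.726, edgeR), in a fit where 6.05% of all genes had an unadjusted p under 0.05. The groups of TGFB1 did not overlap with upper-quartile normalization (LFC 0.41, unadjusted p = 0.0177, adjusted p = 0.286, edgeR), with a minimum of 10 counts in every library (LFC 0.33, adjusted p = 0.352) or with the expected background subtracted (LFC 0.51, adjusted p = 0.415). The LFC of TGFB1 was positive in all 15 alternative settings.

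TGFB2 (ENSSSCG00000010816; chromosome 10 from 10354223 to 10478457, plus strand) encodes the isoform that is prominent in developing organs, the testis included. The baseline libraries held 124, 108 and 100.5 CPM and the complement libraries 95.7, 71.1 and 104.7 CPM. Complement replicate 3 lay within the baseline range and the other 2 complement libraries below it. The difference did not pass the test (LFC -0.29, SE 0.21, 95% interval -0.73 to 0.15, adjusted p = 0.460), and without complement replicate 3 the LFC was -0.44 (adjusted p = 0.103). It was -0.20 with olfactory receptor density as a covariate (adjusted p = 0.941), -0.11 with the expected background subtracted (adjusted p = 0.804), and 0.12 with the covariate and replicate number in the fit (adjusted p = 0.950). The gene model of TGFB2 is fragmented, with 16 of its 21 exon blocks shorter than 50 bp, so its level per exon length is uncertain.

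TGFB3 (ENSSSCG00000002385; chromosome 7 from 105178633 to 105206982, minus strand) encodes the third isoform, which acts on barrier junctions between Sertoli cells. Baseline libraries had 91.3, 72.6 and 101 CPM and complement libraries 83.2, 64.9 and 140.3 CPM. Complement replicate 3 held the highest value of all 6 libraries and complement replicate 2 the lowest. The LFC of 0.13 (SE 0.26, 95% interval -0.42 to 0.67, adjusted p = 0.795) turned to -0.28 without complement replicate 3 (adjusted p = 0.278) and to -0.01 without baseline replicate 2 (adjusted p = 0.989). With the density covariate it was 0.52 (unadjusted p = 0.0387, adjusted p = 0.786, edgeR).

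Per exon length, TGFB2 was the most abundant ligand at baseline. It made up 51.0%, 50.9% and 42.6% of the summed CPM per kilobase of the 3 ligands in baseline libraries and 42.7%, 38.7% and 37.1% in complement libraries. TGFB1 made up 25.8%, 27.8% and 30.8% at baseline and 34.2%, 39.4% and 32.0% with complement, so the groups did not overlap and the share was higher with complement. The share of TGFB3 overlapped, at 21.3% to 26.6% and 21.9% to 30.9%. Ratios within a library do not depend on how libraries are scaled. The ratio of TGFB1 to TGFB2 per kilobase was 0.505, 0.547 and 0.722 in baseline and 0.799, 1.02 and 0.861 in complement NPSC, a mean difference of 0.60 on the log2 scale. It was one of 7 ratios compared, all picked after the values had been seen. Its two-sided exact permutation p was 0.1, the smallest that 3 libraries against 3 allow (adjusted over the 7 ratios by Benjamini-Hochberg, 0.233).

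SMAD6 (ENSSSCG00000004948; chromosome 1 from 182400359 to 182478849, plus strand) encodes the inhibitory SMAD that acts mainly on BMP receptors. Its level was 99.2, 87.9 and 138 CPM in baseline libraries and 63.9, 38.6 and 87.0 CPM in complement libraries. Every complement library was below every baseline library, by less than 1 CPM between complement replicate 3 and baseline replicate 2. The LFC was -0.77 (SE 0.27, 95% interval -1.34 to -0.21, adjusted p = 0.271). Without complement replicate 3 it was -1.11 (adjusted p = 0.0385), past both thresholds, in a fit that gave 10.1% of all genes an adjusted p under 0.05 and called 5.76%. In the other fits without 1 library it was -0.92 to -0.54 (adjusted p = 0.0818 to 0.794). With replicate number as a block it was -0.82 (adjusted p = 0.000263), where 14.4% of all genes had an adjusted p under 0.05. With olfactory receptor density as a covariate it was -0.34 (SE 0.26, adjusted p = 0.923), and with the expected background subtracted the groups overlapped (LFC -0.65, adjusted p = 0.486).

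SMAD7 (ENSSSCG00000004507; chromosome 1 from 108087684 to 108117509, minus strand) encodes the inhibitory SMAD that recruits ubiquitin ligases to TGF-beta receptors. In baseline NPSC it was steady at 133, 141 and 137 CPM, and in complement NPSC it was at 94.1, 97.6 and 136 CPM. Complement replicates 1 and 2 lay below the baseline range and complement replicate 3 within it. The LFC was -0.32 (SE 0.21, 95% interval -0.76 to 0.12, adjusted p = 0.426). Without complement replicate 3 it was -0.54 (adjusted p = 0.0493), and with the density covariate -0.06 (SE 0.16, adjusted p = 0.989). The ratio of SMAD6 to SMAD7 per kilobase was 0.949 to 1.52 in baseline and 0.601 to 1.03 in complement NPSC and overlapped (exact permutation p = 0.3, adjusted over the 7 ratios 0.350).

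SKIL (ENSSSCG00000011746; chromosome 13 from 117852555 to 117940435, plus strand) encodes SnoN, a nuclear corepressor that holds SMAD complexes inactive. Its level was 161, 184 and 176 CPM in baseline libraries and 145, 167 and 254 CPM in complement libraries. Complement replicate 3 lay above, complement replicate 1 below and complement replicate 2 within the baseline range. The LFC of 0.12 (SE 0.24, 95% interval -0.39 to 0.63, adjusted p = 0.784) turned to -0.18 without complement replicate 3 (adjusted p = 0.412) and was 0.49 with the density covariate (unadjusted p = 0.0121, adjusted p = 0.592, edgeR).

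ID2 (ENSSSCG00000008645; chromosome 3 from 135801780 to 135804369, minus strand) encodes an inhibitor of DNA binding, a helix-loop-helix protein without a DNA-binding region. Baseline libraries had 100.5, 124 and 135 CPM and complement libraries 58.5, 68.9 and 81.3 CPM. The highest complement library lay well below the lowest baseline library. The group means were 120.0 ± 17.8 and 69.6 ± 11.4 CPM (SD, n = 3 each). The LFC was -0.78 (SE 0.21, 95% interval -1.22 to -0.35, adjusted p = 0.261), rank 100 by p among all tested genes and the smallest p of the 7. With the density covariate it was -0.50 (SE 0.18, unadjusted p = 0.0158, adjusted p = 0.628, edgeR). ID2 had an adjusted p of 0.0436 without baseline replicate 1 (LFC -0.91) and of 0.0382 without complement replicate 3 (LFC -0.94), in fits that gave 1.8% and 10.1% of genes an adjusted p under 0.05. In the other fits without 1 library its adjusted p was 0.588 to 0.789. With replicate number as a block the adjusted p of ID2 was 0.00049, in a fit that gave 14.4% of genes an adjusted p under 0.05. Its LFC was negative in all 15 alternatives. The Sertoli and Leydig cell marker sums were also lower in complement NPSC, while the sums of the other 4 marker lists overlapped, and their part in these differences was not tested.

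**Figure D2:**
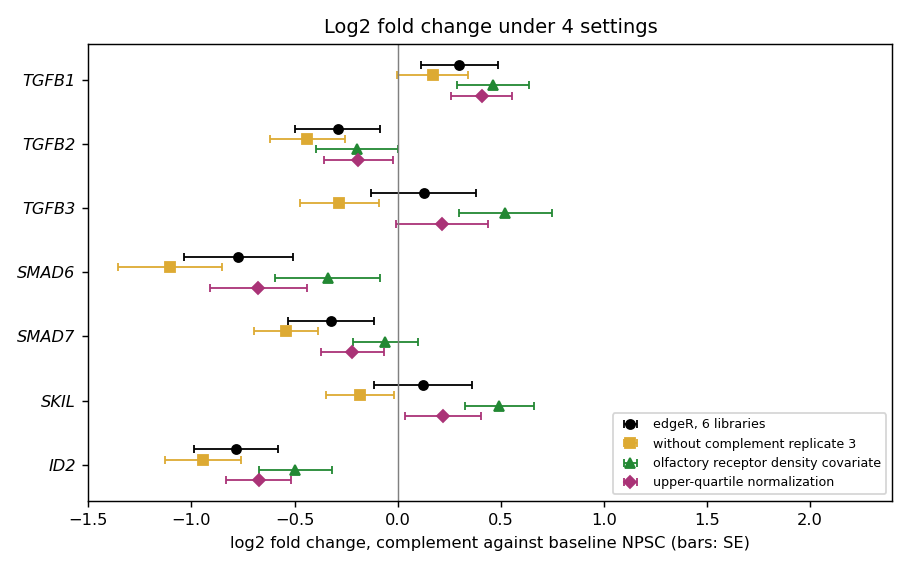
Log2 fold change of complement against baseline NPSC (horizontal axis) of the 7 genes in edgeR fits with bars of 1 SE, under 4 settings: all 6 libraries, without complement replicate 3, with olfactory receptor density as a covariate, and with upper-quartile normalization. ID2 and SMAD6 lay on the lower side in all 4, TGFB1 on the higher side, and TGFB3 and SKIL turned to the lower side without complement replicate 3.

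The E proteins, the partners that ID proteins bind, had overlapping groups throughout: TCF3, TCF4 and TCF12 had LFC of -0.22, -0.12 and -0.25 (adjusted p = 0.538, 0.831 and 0.568). The ratio of ID2 to TCF3 per kilobase was 1.63, 2.08 and 1.93 in baseline libraries and 1.11, 1.33 and 1.35 in complement libraries. The ratio of ID2 to TCF12 was 2.22, 2.30 and 2.38 at baseline and 1.60, 1.85 and 1.42 with complement. Both ratios were lower in all 3 complement libraries, by a mean of 0.57 and 0.51 on the log2 scale (exact permutation p = 0.1 for each, adjusted over the 7 ratios 0.233). The ratio of ID2 to TCF4 overlapped, at 0.796 to 1.06 and 0.423 to 0.927 (exact permutation p = 0.3).

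**Figure D3:**
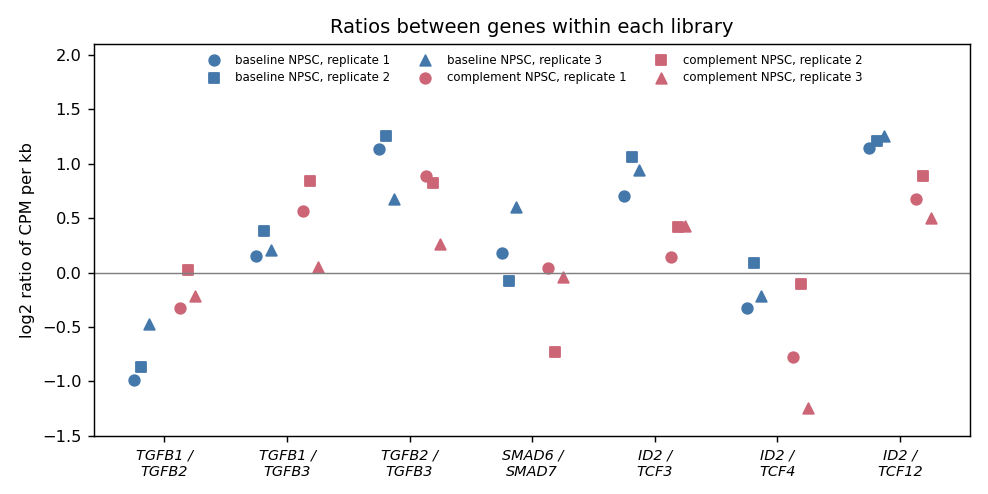
Log2 ratios of CPM per kilobase between pairs of genes within each library (points; 3 libraries per group). The groups did not overlap for TGFB1 to TGFB2, ID2 to TCF3 and ID2 to TCF12, and they overlapped for the other 4 ratios.

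Levels of different genes were compared as CPM per kilobase of exon. At baseline the order was ID2 (84.4 ± 12.5), SMAD6 (53.5 ± 12.9), TGFB2 (46.2 ± 5.09), SMAD7 (44.6 ± 1.32), SKIL (27.4 ± 1.77), TGFB1 (27.0 ± 2.94) and TGFB3 (22.8 ± 3.74; all mean ± SD, n = 3). ID2 was above SMAD6 and SMAD7 above SKIL without overlap of their ranges, whereas the other neighbours in this order overlapped. Within libraries, TGFB1 was still above TGFB3 in all 3. In complement NPSC the order was ID2 (48.9 ± 8.01), TGFB2 (37.7 ± 7.25), SMAD7 (35.6 ± 7.61), TGFB1 (33.2 ± 3.89), SMAD6 (31.3 ± 12.0), SKIL (29.8 ± 9.09) and TGFB3 (24.9 ± 10.2), and the ranges of every pair of neighbours overlapped. Within libraries, ID2 was above TGFB2 and SKIL above TGFB3 in all 3 of complement NPSC. All 7 genes were well expressed: over the 6 libraries ID2 had a level per kilobase above that of 94.3% of the tested genes and TGFB3, the lowest, above 77.9%.

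**Figure D4:**
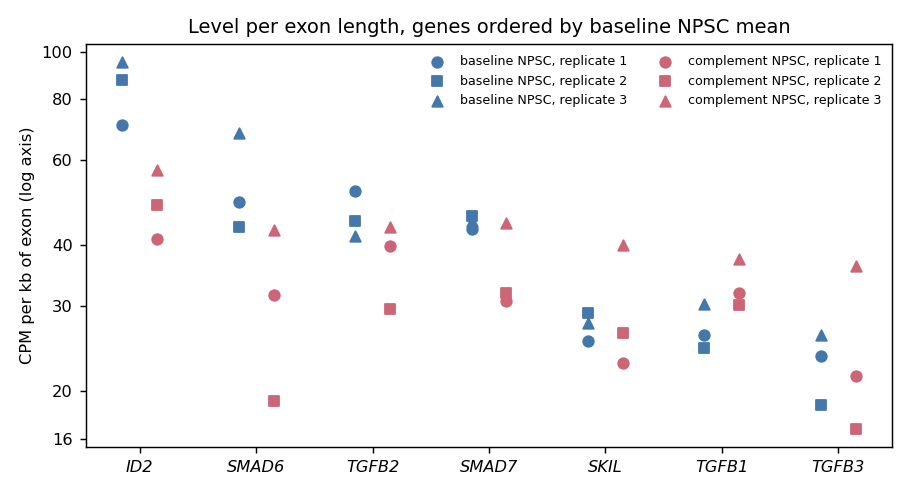
Level of each gene in CPM per kilobase of exon (log axis) in the 6 libraries, ordered by the baseline NPSC mean. ID2 ranked highest in both groups, and SMAD6 spanned 19.1 in complement replicate 2 to 68.1 in baseline replicate 3.

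Over the 6 libraries, the genes whose centred log2 CPM lay nearest to that of ID2 were PLRG1, PIGA, LGR4, MKRN2 and SSR4, with root mean square differences of 0.078 to 0.10. PIGA, an enzyme of GPI anchor synthesis, had 45.5, 53.4 and 53.2 CPM at baseline and 27.6, 29.6 and 37.2 CPM with complement. LGR4, a receptor for R-spondins, had 70.9, 91.5 and 88.3 CPM at baseline and 47.6, 52.0 and 58.0 CPM with complement. Like ID2, both were lowest in complement replicate 1 and highest, within complement NPSC, in replicate 3. Both were picked for their nearness to ID2 over these same libraries, so the shared order is no separate observation. Among the 21 pairs of the 7 genes, TGFB2 and SMAD7 were nearest to each other (0.19), and TGFB1 and SMAD6 farthest apart (0.62).

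Of 78 other genes listed for the pathway, 57 were in the tables and 51 were tested. JUNB, an AP-1 subunit that TGF-beta and many other stimuli induce, was the only one called. Its level was 193, 195 and 186 CPM in baseline and 483, 408 and 653 CPM in complement libraries (LFC 1.43, SE 0.25, adjusted p = 0.0455). Every complement library held more than 2 times the highest baseline value. The call was lost with DESeq2 size factors in edgeR and without baseline replicate 2, baseline replicate 3 or complement replicate 1. It was kept in all other alternatives, among them the DESeq2 Wald test (LFC 1.38, adjusted p = 3.69e-06) and the density covariate in edgeR (LFC 1.70, adjusted p = 0.000929). For 4 of the 51 genes the complement libraries all lay above baseline (JUNB, ACVR1B, BMP5 and MSTN), and for 5 they all lay below it (SMAD2, SMAD9, INHA, BAMBI and ATOH8), directions that 8.95% and 8.14% of all tested genes showed. The expected background came to 91.7% of the counts of BMP5 and exceeded those of MSTN.

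Among receptors, 10 of 13 tested genes had a negative LFC (median -0.24) and none was called. Over all 17512 tested genes, 8492 had a negative LFC and 9020 a positive one. Genes of a list were measured in the same libraries, so their signs are not independent. ENG, endoglin, a TGF-beta co-receptor, was the most abundant per kilobase, with 1070, 845 and 1349 CPM in baseline and 550, 448 and 1325 CPM in complement libraries (LFC -0.49, adjusted p = 0.499). Complement replicate 3 was within the baseline range and the other 2 below it, and without it the LFC of ENG was -1.15 (adjusted p = 0.0382). TGFBR2, the type II TGF-beta receptor, had an LFC of -0.25 (adjusted p = 0.521).

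All 5 receptor and common SMADs tested had a negative LFC (median -0.39). SMAD1 had 0 counts in every library, which is not read as absent RNA. SMAD2, the TGF-beta and activin SMAD, was at 67.3, 80.3 and 67.9 CPM in baseline and 44.3, 43.9 and 56.1 CPM in complement libraries (LFC -0.58, SE 0.19, adjusted p = 0.268). SMAD3, its partner, was at 221 to 304 and 187 to 290 CPM and overlapped (LFC -0.11, adjusted p = 0.811). SMAD4, common to all branches, had an LFC of -0.39 (adjusted p = 0.403).

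Among 11 other ligands tested, 8 had a positive LFC (median 0.27), and the expected background came to 17.2% (BMP4) or more of the counts of each of these 8, with 43.4% for BMP7, 49.4% for GDF5 and 70.7% for BMP3. Of the 3 ligands with a negative LFC it came to 0.784% for INHA, 4.37% for BMP6 and 43.7% for GDF9. INHA, the inhibin alpha subunit and one of the Sertoli cell markers, was at 355, 526 and 407 CPM in baseline and 242, 290 and 242 CPM in complement libraries (LFC -0.73, SE 0.25, adjusted p = 0.269). All complement libraries were below all baseline libraries. BMP6 was at 291 to 306 CPM at baseline and 190 to 305 CPM with complement (LFC -0.29, adjusted p = 0.520).

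LTBP1, which tethers latent TGF-beta to the matrix, and FST, follistatin, which traps activin, had LFC of -0.26 and 0.03 (adjusted p = 0.654 and 0.960), and 5 of the 6 latency and ligand-binding genes had a negative LFC. Of 6 intracellular and membrane regulators 3 were negative and 3 positive. TGIF1, a SMAD corepressor, had an LFC of 0.41 (adjusted p = 0.356), and PPM1A, a SMAD phosphatase, of -0.26 (adjusted p = 0.509).

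Of 7 other response genes tested, 4 had a positive LFC. CDKN1A had 0 counts in every library, which is not read as absent RNA. CCN2, a matricellular TGF-beta target and the most abundant of them per kilobase, was at 1279 to 2103 CPM in baseline and 1351 to 2501 CPM in complement NPSC (LFC 0.26, adjusted p = 0.694). ID4, singled out after its values were seen as the other ID gene in the tables, had 77.9, 118 and 108 CPM at baseline and 43.6, 62.0 and 83.4 CPM with complement. Its groups overlapped in 1 library, complement replicate 3 (LFC -0.68, SE 0.24, adjusted p = 0.273).

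**Figure D5:**
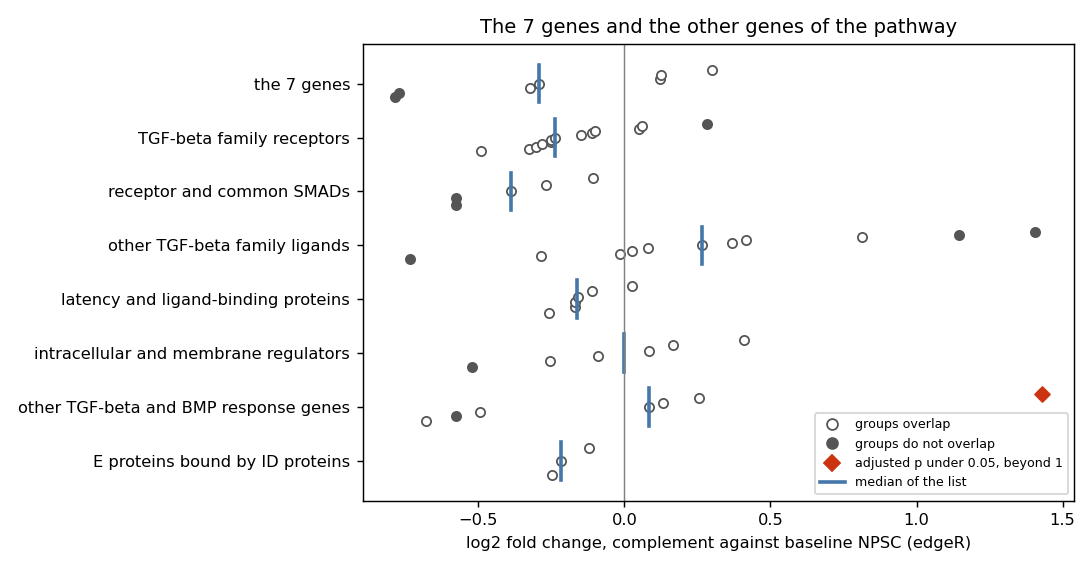
Log2 fold change of complement against baseline NPSC (horizontal axis, edgeR) of the 7 genes and of 51 other genes of the pathway by list. Open points have overlapping groups, filled points do not, a diamond marks a call, and the vertical bars mark list medians, from -0.39 (receptor and common SMADs) to 0.27 (other ligands). JUNB was the only gene called.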

How the data were processed

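RNA of 6 plates was sequenced as paired reads of 150 bases, and the authors deposited raw counts per Ensembl pig gene with the summed exon length, without normalization. The submitters' processing notes name Trimmomatic 0.36, STAR 2.5.2b and featureCounts of Subread 1.5.2. Genome build, strand setting and treatment of multi-mapped reads are not given in the sources used here. Symbols were paired with 11804 identifiers. The spans of TGFB2 and SMAD6 each hold 1 other gene, but no exon of another gene overlapped the exons of the 7 genes.

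Counts were filtered with filterByExpr, normalized by TMM and tested with the quasi-likelihood F-test of edgeR 4.0.16 in R 4.3.3, with Benjamini-Hochberg adjustment over 17512 genes, and with DESeq2 1.42.0 as an alternative. Adjusted p-values are from edgeR unless DESeq2 is named. A call needed a log2 fold change beyond 1 with an adjusted p under 0.05, and a threshold of 0.7, which the study also uses, was added after the data were seen. CPM were taken on the TMM-scaled library, and log2 CPM used a prior count of 2. Expected background counts were taken as the counts per base on 48 olfactory receptor genes (45945 bp of exon) multiplied by a gene's exon length. Exact permutation tests were two-sided (scipy 1.17.1), and plots used matplotlib 3.10.9.

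The members, gene lists, ratios and the background were chosen with earlier results of these data known. All 7 genes are given with their values, the 2 most abundant genes per kilobase of each list and list genes called or with an unadjusted p under 0.01 with at least their LFC, and the 5 genes nearest to the member with the smallest p are named. Other genes (KRT18, DHH, the macrophage markers, GDF9, BMP3, BMP4, BMP7, GDF5, TCF12, ID4, and those named for groups that did not overlap or for calls without 1 library) were singled out after their values were seen. In counts simulated for this comparison, edgeR called 99.50% of 200 genes changed by a log2 fold of 2, and 8 of 17626 unchanged genes. The simulation gave every gene the same dispersion, changed only well-counted genes and held no background difference between libraries. It therefore does not measure how often changes as small as those of the 7 genes would be called in these data. Replicates were compared first: within-group pairs differed by more than counting noise (chi-square per degree of freedom 4.11 to 16.4).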

Additional observations from a re-analysis of the deposited data

How the results depend on the processing

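Across 15 alternatives, 95 of the 105 fold changes of the 7 genes kept their direction and their side of an adjusted p of 0.05. TGFB1 stayed positive and SMAD6, SMAD7 and ID2 negative in all 15. Without 1 library, LFC ranged from 0.17 to 0.37 (TGFB1), -0.44 to -0.16 (TGFB2), -0.28 to 0.32 (TGFB3), -1.11 to -0.54 (SMAD6), -0.54 to -0.22 (SMAD7), -0.18 to 0.28 (SKIL) and -0.94 to -0.67 (ID2). In the same fits 9 to 1063 genes, 0 to 1 of the 7 genes (SMAD6 without complement replicate 3) and 0 to 4 other pathway genes were called, beside 18, 0 and 1, and groups were apart for 2 to 4 of the 7 (for 21.1% of all genes without baseline replicate 3 and up to 58.6% without complement replicate 3). The 4 pathway genes, without complement replicate 3, were JUNB, ENG, BMP7 (43.4% expected background) and BMP15 (6, 5 and 2 counts against 11 and 19, with 1 in the library left out, and too few to be tested with all libraries). With a log2 fold change threshold of 0.7 in place of 1, chosen after seeing the data, the calls from all 6 libraries numbered 18 again, with none of the 7 genes, while ID2 was called without baseline replicate 1, and ID2 and SMAD6 without complement replicate 3 (8.35% of all genes) or with the replicate block (8.99%). With all libraries, the groups of TGFB1 were also apart under 3 alternatives, and those of SMAD6 overlapped with the expected background subtracted. Genes called numbered 53 with the DESeq2 Wald test, 31 without a filter, 31 with the expected background subtracted and 58 with the density covariate. With DESeq2 size factors in edgeR 0 pathway genes were called, and 15 genes in all. Upper-quartile normalization moved the median LFC of all genes by 0.11 and turned no sign of the 7 genes. With replicate number as a block, 728 genes were called, 14.4% of all genes had an adjusted p under 0.05, and the LFC of SMAD6 and ID2 were -0.82 and -0.79 (adjusted p = 0.000263 and 0.00049). With the block and the density covariate together, 116 genes were called and TGFB2 was at 0.12 (adjusted p = 0.950). In that fit SMAD6 was at -0.45 (adjusted p = 0.662) and ID2 at -0.71 (adjusted p = 0.228). Same-numbered libraries deviated together for numbers 1 and 3 (r of deviations 0.456 and 0.482) but not 2 (0.030), and baseline replicate 2 correlated best with complement replicate 3 (0.066). These correlations, taken from deviations within groups of 3, cannot decide whether same-numbered plates share a litter, which is not known. The main fit left the libraries unpaired because the study used a 2-group test and the labels state no pairing. The cause of these shifts was not tested. Alternatives for INHBA, ID1 and ID3 were not run. Depth limits low genes most: MSTN had 4 to 14 counts per library.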
